A study of Homo sapiens with 9 samples.

Results

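Peaks in 5′UTRs were examined for both strands of miR-342 in Argonaute (Ago) crosslinking data from a triple negative breast cancer (TNBC) line. A peak was counted as a 5′UTR peak when its midpoint lay, on the strand of the peak, in an annotated 5′UTR of a protein-coding gene and in no annotated coding exon or 3′UTR. By this rule 284 of the 8460 deposited peaks were 5′UTR peaks, of which 99 came from the miR-342-3p list (3450 peaks) and 185 from the miR-342-5p list (5010 peaks). They lay in 92 and 150 genes. Midpoints that fell in a 5′UTR of one transcript but in a coding exon or 3′UTR of another were left out, which removed 52 miR-342-3p and 86 miR-342-5p peaks.

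The cells were MDA-MB-231HM (231HM), a highly metastatic variant of the human TNBC line MDA-MB-231, with the genotype given as WT in all 9 libraries. They were transfected with 20 nM of a negative control, a miR-342-3p or a miR-342-5p mimic and were crosslinked after 48 h, with 3 libraries per mimic. In Ago-HITS-CLIP, ultraviolet light crosslinks Ago to the RNA it holds, Ago is immunoprecipitated with an antibody to Ago2, and the RNA still bound to it is sequenced. Each list holds the peaks of a miR-342 mimic called over the negative control, so both lists rest on the same control libraries, and a mimic at this dose is a raised level of the miRNA rather than the amount the cells make themselves.

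A miRNA guides Ago to RNAs that pair with its seed, the bases near its 5′ end. The best known sites lie in 3′UTRs, where Ago recruits proteins that repress translation and shorten the poly(A) tail. The 5′UTR is the stretch between the cap and the start codon, through which the small ribosomal subunit scans. Its sequence is often rich in G and C. Both miR-342 strands come from a single hairpin in an intron of EVL, and their seeds differ, so the strands can pair with different RNAs.

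The mature sequences (RefSeq) are given with the seed, bases 2 to 8, in capitals, because the sites below were derived from them.
miR-342-3p: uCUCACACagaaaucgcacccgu
miR-342-5p: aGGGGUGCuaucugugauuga
For miR-342-3p the 8mer site was GUGUGAGA, and the 7mers were GUGUGAG (7mer-m8) and UGUGAGA (7mer-A1). For miR-342-5p the 8mer was GCACCCCA, with the 7mers GCACCCC and CACCCCA. The part common to both 7mers, UGUGAG or CACCCC, was counted as a 6mer. Each peak was given the longest of these within 50 nt of its summit on the strand of the peak.

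The next sequences are shown because they belong to the miR-342-3p 5′UTR peaks with the highest scores among those with an 8mer (CLIC1 and WLS) and with a 7mer (LGALS1 and APLP2), together with the sites of TNRC6B, LMNB1 and ECT2. Each is 30 nt of GRCh37 (hg19), written as RNA on the strand of the gene with the site in capitals.
CLIC1, chr6:31704146-31704175, minus strand: cuaggggagagagucccugaGUGUGAGAcc
WLS, chr1:68698048-68698077, minus strand: gaggcgaggaaggagggaguGUGUGAGAgg
LGALS1, chr22:38071697-38071726, plus strand: ccuggacucaaucauggcuuGUGUGAGugu
APLP2, chr11:129939811-129939840, plus strand: gcuaagcgaggaguccgaguGUGUGAGcuu
TNRC6B, chr22:40573946-40573975, plus strand: gagagagcaagagggagaguGUGUGAGAga
LMNB1, chr5:126112915-126112944, plus strand: uugcauuuucccgcgugcguGUGUGAGugg
ECT2, chr3:172468572-172468601, plus strand: ccggcgaggaauggcgguauuUGUGAGAgg
CLIC1, a chloride intracellular channel protein, had the highest score of the 12 peaks with an 8mer (58). The centre of its 8mer lay 30.5 nt downstream of the summit, in a peak 170 nt wide. WLS, which carries Wnt proteins to the cell surface, had a score of 56. LGALS1, which encodes galectin-1, had a 7mer-m8 and a score of 135, but this site lay in the intron behind its first exon. APLP2, of the amyloid precursor family, had a 7mer-m8 and a score of 108. TNRC6B, an Ago partner in silencing (score 16), LMNB1, which encodes lamin B1 (score 22), and ECT2, a guanine nucleotide exchange factor of cytokinesis (score 16), had lower peaks.

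For miR-342-5p, the sites of the 2 highest peaks with an 8mer and the 3 highest with a 7mer are shown.
RNF11, chr1:51702391-51702420, plus strand: uuucuccucccccagaucacGCACCCCAgc
LCLAT1, chr2:30670188-30670217, plus strand: cggagccccagcuugcccacGCACCCCAcu
HSPA8, chr11:122932771-122932800, minus strand: ucguuauuggagccaggccuaCACCCCAgg
TNFRSF1A, chr12:6451087-6451116, minus strand: cgagucucaacccucaacuguCACCCCAag
DUSP6, chr12:89745838-89745867, minus strand: ccccgaggggcgucugguagGCACCCCgcc
RNF11, a RING-finger protein, had the highest score of the 17 peaks with an 8mer (183), followed by LCLAT1, a lysocardiolipin acyltransferase (69). HSPA8, the constitutive Hsc70 chaperone (140), and TNFRSF1A, a receptor for TNF (115), had a 7mer-A1. DUSP6, the phosphatase that inactivates ERK, had a 7mer-m8 and a score of 106.

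The score is the only measured value of a peak, and the authors describe a score of 5 as 5 or more reads above background. The replicates of a mimic were merged before peaks were called, so there is no value per library, the depth of each library is unknown from the lists, and no spread between replicates can be given. Tests and confidence intervals (CI, 95%) below therefore cover the counting error of peaks alone. Reads had been collapsed with UMI-tools, and how many copies remained is unknown from the lists. The lists hold no RNA levels, so more Ago per mRNA and more mRNA cannot be told apart in a score, nor could the identity of the cells be checked against marker genes. Scores of the lists may also be scaled differently. P-values of 16 tests were adjusted together by the Benjamini-Hochberg method.

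The 5′UTR peaks made up 2.87% of nuclear miR-342-3p peaks (99 of 3450, CI 2.36–3.48%) and 3.73% of nuclear miR-342-5p peaks (185 of 4963, CI 3.24–4.29%). The difference of 0.858 percentage points (CI 0.0729–1.62) had p = 0.0319 in a two-sided Fisher's exact test and did not pass 0.05 after adjustment (adjusted p = 0.0566). It passed under 3 of the other settings. These were each gene counted once per location (1.82 percentage points), placement by the summit (0.911) and canonical transcripts alone (0.904). It did not pass with scores of at least 10 (0.913), scores above 50 (1.81) or all protein-coding transcripts (0.789). With the whole peak outside coding exons and 3′UTRs it was 0.43 percentage points (same exact test, adjusted p = 0.324). Scores had a median of 22 in the miR-342-3p list (range 6–518) and of 19 in that of miR-342-5p (range 5–396), and the median width was 66 and 92 nt.

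Most of the 12 highest 5′UTR peaks of the miR-342-3p list had no seed match. XPO6, which exports actin from the nucleus, had the highest score (518). It was followed by XPO1, the main nuclear export receptor (313), and XRCC5, the Ku80 subunit of non-homologous end joining (264). Next came ACTR2, a subunit of the Arp2/3 actin nucleator (150), LGALS1 (135), and APLP2 and the membrane-actin linker MSN (108 each). ANP32E, a histone chaperone (78), TOP2B, a DNA topoisomerase (77), BAG6, a chaperone of protein quality control (65), and CLIC1 (58) were also among the 12 highest. Of these 12, CLIC1 had an 8mer, LGALS1, APLP2 and TOP2B had a 7mer-m8, and the other 8 had neither a 7mer, 8mer nor 6mer. The intronic site of LGALS1 lay 41 nt downstream of the summit, and so was not part of the spliced 5′UTR.

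In the miR-342-5p list, 6 of the 12 highest 5′UTR peaks had at least a 6mer. The matricellular protein gene CCN1 had the highest score (396), and RBMX, an RNA-binding protein of the hnRNP G type, followed (267). Both had a 6mer, CACCCC. The glutamine transporter SLC1A5 had a score of 210 and RNF11 of 183. Scores between 128 and 155 were found in TIMP3, an inhibitor of matrix metalloproteinases (155), HSPA8 (140), CST3, the protease inhibitor cystatin C (137), SLC38A2, an amino acid transporter (133), and MT1E, a metallothionein (128). TNFRSF1A (115), PLAU, the urokinase protease (110), and DUSP6 (106) completed the 12 highest. Of the 12, RNF11 had an 8mer, HSPA8, TNFRSF1A and DUSP6 a 7mer, CCN1 and RBMX a 6mer, and the other 6 had no match.

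**Figure D1:**
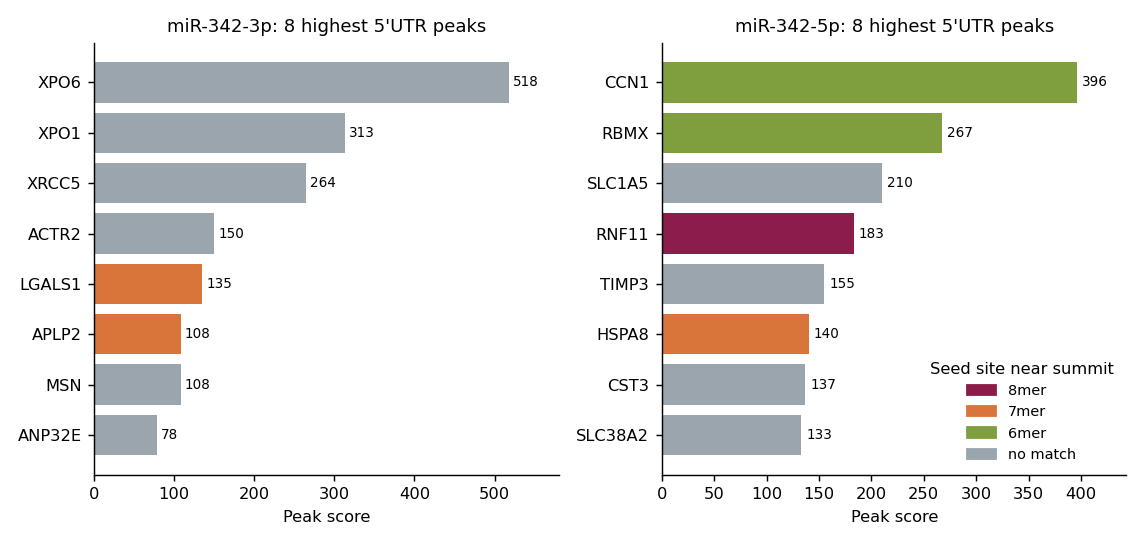
Scores of the 8 highest 5′UTR peaks of each list, as bars from 0 on an axis in score units, coloured by the longest seed site within 50 nt of the summit. The miR-342-3p scores run from 78 to 518 and the miR-342-5p scores from 133 to 396, with an 8mer in RNF11 alone. There is no replicate error, because each score comes from merged libraries.

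Seed sites were common in the 5′UTR peaks of both mimics. A 7mer or 8mer of miR-342-3p was present around 32 of 99 miR-342-3p summits (32.3%, CI 23.9–42.0%) and on the opposite strand of 0 of the same windows (CI up to 3.74%), a difference in a two-sided exact McNemar test (p = 4.66e-10, adjusted p = 1.86e-09). For miR-342-5p the numbers were 66 of 185 (35.7%, CI 29.1–42.8%) and 5 of 185 on the opposite strand (2.70%, CI 1.16–6.17%, same exact test, p = 6.8e-16, adjusted p = 9.6e-15). The opposite strand has the same base pairs and so the same GC content, but G and C are exchanged in it, as are A and U. It is therefore not matched for words rich in G and U or in C. Sites followed the mimic. A miR-342-3p site was found around 1 of the 185 miR-342-5p summits, which was 31.8 percentage points less than in its own list (CI 23.0–41.5, two-sided Fisher's exact test, adjusted p = 9.6e-15). A miR-342-5p site was found around 0 of the 99 miR-342-3p summits, 35.7 percentage points less than in its own list (CI 28.1–42.8, same exact test, adjusted p = 2.05e-14). In windows of the same 101 nt at the middle of the 5′UTR of 11915 protein-coding genes, 1.53% held a 7mer or 8mer of miR-342-3p and 1.92% of miR-342-5p.

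In the miR-342-3p list, 12 peaks had an 8mer (12.1%), 18 a 7mer-m8, 2 a 7mer-A1 and 1 a 6mer alone. In the miR-342-5p list, 17 peaks had an 8mer (9.19%), 37 a 7mer-m8, 12 a 7mer-A1 and 27 a 6mer alone (14.6%). The share with a 7mer or 8mer differed between the lists by 3.35 percentage points (CI -8.37–14.4), within counting error (two-sided Fisher's exact test, p = 0.602, adjusted p = 0.688). When 6mers were counted as sites, the miR-342-5p share was 16.9 percentage points higher and passed 0.05. More than 1 site was present in 3 miR-342-3p and 5 miR-342-5p windows.

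Compared with other locations of the same list, 5′UTR peaks had a site more often than peaks in coding exons. For miR-342-3p the share was 16.0 percentage points above the 16.3% of 1900 coding exon peaks (CI 7.43–25.9, two-sided Fisher's exact test, p = 0.000162, adjusted p = 0.000517). For miR-342-5p it was 8.23 percentage points above the 27.4% of 3487 coding exon peaks (CI 1.51–15.5, same exact test, p = 0.0182, adjusted p = 0.0365), but this did not hold when each gene was counted once per location (0.911 percentage points). Against 3′UTR peaks the direction differed between the mimics and neither difference passed 0.05. The miR-342-3p share was 8.85 percentage points above the 23.5% of 1180 3′UTR peaks (CI 0.0809–18.8, exact test, adjusted p = 0.0819), and the miR-342-5p share was below the 43.0% of 893 3′UTR peaks (a difference of -7.33 percentage points, CI -14.6–0.494, exact test, adjusted p = 0.104). With each gene counted once, the miR-342-5p difference was -15.0 percentage points and passed.

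**Figure D2:**
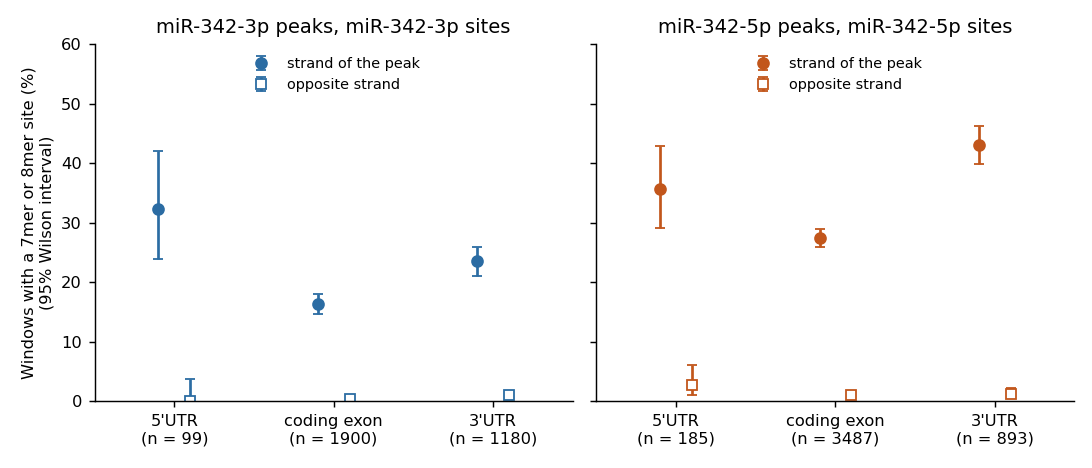
Share of peaks with a 7mer or 8mer site of their own mimic within 50 nt of the summit, in percent, for 5′UTR, coding exon and 3′UTR peaks of each list. Filled circles are the strand of the peak, open squares the opposite strand, and bars are 95% Wilson intervals for counting error. In 5′UTRs the circles are at 32.3% and 35.7% and the squares at 0% and 2.70%.

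Sites lay close to the summits. The centre of the nearest site was within 10 nt of the summit in 19 of 32 windows for miR-342-3p (59.4%) and in 53 of 66 for miR-342-5p (80.3%), and within 25 nt in 28 and 65. Over 200 nt on each side, 38 of 48 miR-342-3p sites and 72 of 111 miR-342-5p sites were inside the 50 nt windows. On the opposite strand there were 1 and 21 sites over the same distance, with 0 and 5 inside the windows. The nearest site was in the 5′UTR itself for 30 of 32 and 64 of 66 windows. Apart from LGALS1, the exceptions were LONP1, whose site lay outside the annotated transcript, and LSM14B and DNAJC14, whose sites lay in the coding sequence. LONP1 and LSM14B were chosen after their values were seen.

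**Figure D3:**
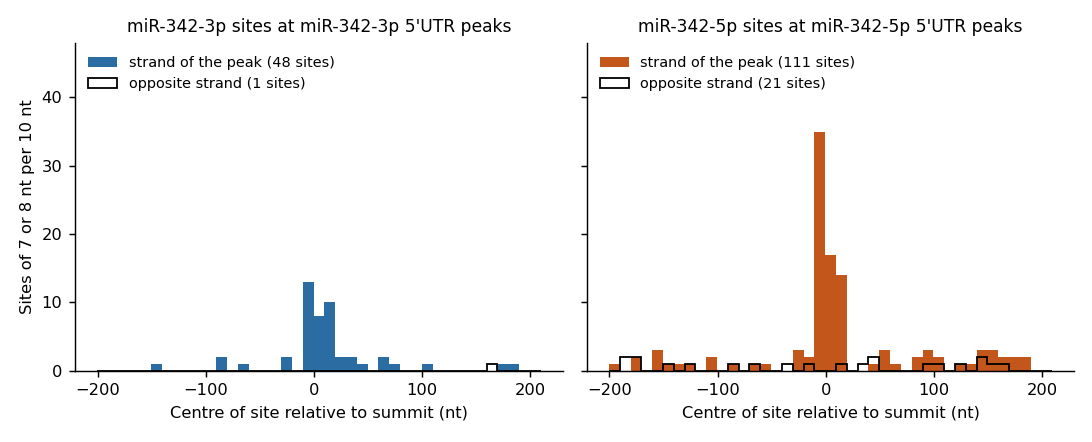
Number of 7mer and 8mer sites per 10 nt, against the position of the site relative to the summit in nt, with downstream positions to the right. Filled bars are the strand of the peak (48 and 111 sites) and the line is the opposite strand (1 and 21 sites). Sites on the strand of the peak gather at the summit, with 38 and 72 of them within 50 nt.

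The 12 miR-342-3p 8mers lay in CLIC1 (score 58), WLS (56), CDK8, a kinase of Mediator (35), HCFC1, a transcriptional coregulator (31), BCL7A, a SWI/SNF subunit (22), KLF12, a transcriptional repressor (18), WDTC1 (16), TNRC6B (16), TOP2B (14), the tyrosine kinase ABL1 (12), URI1 (11) and CPED1 (10). The TOP2B 8mer belonged to another of its 3 peaks than the one with a score of 77. In BCL7A, KLF12 and CPED1 the window also held a run of alternating G and U of 28, 17 and 14 nt.

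The 17 miR-342-5p 8mers lay in 16 genes. After RNF11 (183) and LCLAT1 (69) came PLEC, which encodes the cytolinker plectin (56), PSENEN, a γ-secretase subunit (32), LRFN3, a synaptic adhesion protein (30), DLGAP4, a postsynaptic scaffold (23), and TADA3, a histone acetyltransferase adaptor (23). CHST11, a chondroitin sulfotransferase (21), SLC17A9, a nucleotide transporter (20), NSD3, a histone methyltransferase (18), and LRRC8D, a subunit of volume-regulated anion channels (15), followed. Among the lowest were PLEKHH3 (14), ERBIN (13 and 12), GATAD2A, a NuRD subunit (12), and TNS2, a tensin (10). The 2 ERBIN peaks lay next to each other and shared a site.

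In the miR-342-3p list the median score was 18 with a 7mer or 8mer and 25.5 without any match. In the miR-342-5p list these medians were 19.5 and 17. These are descriptions without a test.

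No 7mer, 8mer or 6mer was found around 66 of the 99 miR-342-3p summits (66.7%) and 92 of the 185 summits of miR-342-5p (49.7%). The counts of words and runs that follow were chosen after their values were seen and were not tested. The opposite strand beside them has the limit given above, with G and C exchanged. In the miR-342-3p windows, GUGUGUG was present in 18 of 66 and on the opposite strand of 0. An alternating GU run of 12 nt or more lay around 15 of the 99 miR-342-3p summits (15.2%), 8 of them without a 7mer or 8mer, compared with 1 of 185 miR-342-5p summits (0.541%) and 0.0587% of the annotated 5′UTR windows. XPO1 had a run of 32 nt, BAG6 of 40 nt and ANP32E of 12 nt. A match to bases 3 to 8 of the miRNA, the offset 6mer, was present in 8 of the 66 windows and on the opposite strand of 0.

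Pairing with the 3′ part of miR-342-3p was frequent in these windows. A run of 6 nt complementary to miRNA bases 9 to 23 was present in 28 of 66 windows (42.4%) and on the opposite strand of 2 (3.03%). The most frequent were GGUGCG, which pairs with bases 15 to 20, in 14 windows, and GUGCGA, which pairs with bases 14 to 19, in 8 (the letters of these words overlap). The runs were centred near the summit, within 10 nt in 17 of 28 windows. It was found in 15 of 35 windows within 100 nt of the start codon and 13 of 31 farther away, in 24 of 58 windows without GU runs, and in miR-342-3p windows that had a 7mer or 8mer (13 of 32, 40.6%). The share was 14.6% in the miR-342-5p windows (27 of 185) and 13.8% in the annotated 5′UTR windows. In miR-342-3p windows without a match elsewhere, it was 22.3% in coding exons (10.8% on the opposite strand) and 23.4% in 3′UTRs (9.54%). For miR-342-5p and its own bases 9 to 21, the same count in 5′UTR windows was 4 of 92, with 7 of 92 on the opposite strand. Because GGGUGC is the complement of GCACCC, the opposite strand of miR-342-5p sites holds such runs too and was not used as a background.

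In XPO6 and XRCC5, the highest and the third highest miR-342-3p peaks, no stretch of pairing with the miRNA was longer than such a run of 6 nt. They are shown with the 6 nt in capitals.
XPO6, chr16:28222737-28222766, minus strand: augaccugaacuGUGCGAgcgggacguguc
XRCC5, chr2:216974150-216974179, plus strand: gaccggcaacauGGUGCGgucggggaauaa
The capitals pair with bases 14 to 19 of miR-342-3p in XPO6 and with bases 15 to 20 in XRCC5. The XRCC5 letters begin at base 3 of its start codon. With its 7mer-m8, TPM4, a tropomyosin chosen after its values were seen, had the longest such stretch, 9 nt complementary to bases 13 to 21, directly upstream of the seed site (score 30).
TPM4, chr19:16191111-16191140, plus strand: accuguaaaaugggugcgauGUGUGAGgau

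In windows without a match in the miR-342-5p list, seed sites with a G:U pair were counted. A 7mer-m8 with a G:U pair at 1 position was present in 31 of 92 windows (33.7%) and on the opposite strand of 2. In the miR-342-3p list such a match was present in 3 of 66 windows and on the opposite strand of 0. The pair was allowed at each C or A of a site, and GUGUGAG has only a single A. More words were therefore searched for miR-342-5p, and these shares cannot be compared between the lists. The most frequent word was GCGCCCC, present in 17 of the 92 windows and on the opposite strand of 0. The offset 6mer was present in 12 of 92 windows (opposite strand, 3). Of the 12 highest peaks, 4 are shown with the longest match in capitals, which is the 6mer in CCN1 and RBMX, the seed match with a G:U pair in CST3 and the offset 6mer in SLC38A2.
CCN1, chr1:86046561-86046590, plus strand: ccaccgcgccgcCACCCCgaccccgcugcg
RBMX, chrX:135962748-135962777, minus strand: ugaacccauuguCACCCCuccgguacgugu
CST3, chr20:23618518-23618547, minus strand: agccucucgccuGCGCCCCacuccccgcgu
SLC38A2, chr12:46765085-46765114, minus strand: gcgcuacuagcuGCACCCgauuccucccag

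Peaks of both lists spread over the whole 5′UTR. Along the spliced transcript, the midpoint lay a median of 112 nt upstream of the start codon in the miR-342-3p list (range 4–1509, quartiles 38 and 256) and 96 nt in that of miR-342-5p (range 1–1134, quartiles 46 and 206). Within 100 nt of the start codon were 48 of 99 miR-342-3p peaks (48.5%) and 98 of 185 miR-342-5p peaks (53.0%). The difference of 4.49 percentage points (CI -7.59–16.4) was within counting error (two-sided Fisher's exact test, p = 0.534, adjusted p = 0.657). More than 500 nt away were 12 and 13 peaks. Of the peaks with a score above 50, 10 of 16 in the miR-342-3p list and 26 of 31 in the miR-342-5p list lay within 100 nt. This difference between the lists was 21.4 percentage points and did not pass (same exact test, adjusted p = 0.338). How score and distance go together within a list was not tested. The first 100 nt of the annotated transcript held 48.5% of miR-342-3p and 38.4% of miR-342-5p midpoints, a difference of -10.1 percentage points (CI -21.9–1.88, same exact test, adjusted p = 0.138), which passed 0.05 when peaks were placed by the summit (-17.1) or by the nearest of the transcripts (-14.3). The 5′UTRs that held the peaks were long, with medians over peaks of 232 and 280 nt. The median over 19282 genes was 136 nt. These units are unlike, because a gene with several peaks enters the former medians once per peak. A longer 5′UTR also offers more places for a midpoint. Exon 1 held 89 of 99 and 156 of 185 midpoints.

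The peaks nearest to a start codon were those of RRM1, the large subunit of ribonucleotide reductase (4 nt, score 20), XRCC5 (8 nt), and MSN and the lysosomal glycoprotein gene CD68 (both 9 nt, CD68 with a score of 30), in the miR-342-3p list. In the miR-342-5p list they were LGALS3BP, a secreted glycoprotein (1 nt, score 58), RFX1, a transcription factor (2 nt, score 6), and, all at 4 nt, NPM1, the nucleolar protein nucleophosmin (score 37), PLEC (score 23) and DNAJC14 (score 10). DNAJC14 had a 7mer-m8, which lay in the coding sequence, and the other peaks named here had no match. The interval of the peak reached into coding sequence for 19 of 99 and 48 of 185 peaks. Among peaks within 100 nt of the start codon, 12 of 48 in the miR-342-3p list had a site (CI 14.9–38.8%), compared with 20 of 51 farther away (39.2%, CI 27.0–52.9%). For miR-342-5p the shares were 28 of 98 (28.6%, CI 20.6–38.2%) and 38 of 87 (43.7%, CI 33.7–54.1%). The share was lower near the start codon in both lists, with overlapping intervals, and this was not tested.

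**Figure D4:**
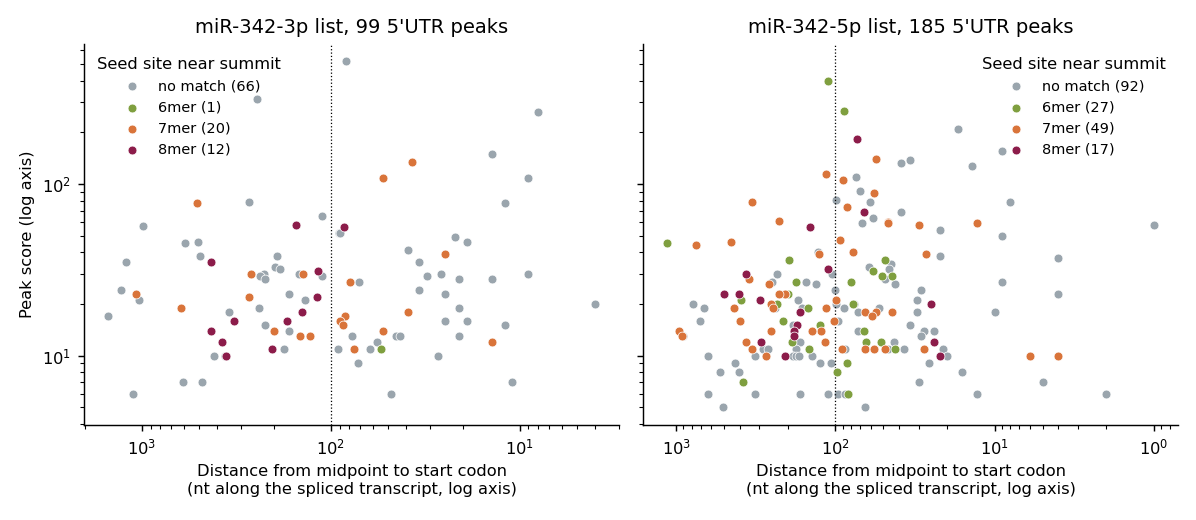
Peak score against the distance from the midpoint to the start codon in nt along the spliced transcript, both on log axes, with the start codon to the right. Each point is a 5′UTR peak (99 and 185), coloured by the longest seed site within 50 nt of the summit, and the dotted line marks 100 nt. Peaks lie on both sides of the line in both lists, 48 and 98 of them within 100 nt of the start codon. Of the peaks with a score above 50, 10 of 16 and 26 of 31 lie within 100 nt.

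GC content was higher around miR-342-5p than around miR-342-3p summits. Within 50 nt of the summit, the median was 61.4% in the miR-342-3p list (54.5 and 68.3 at the quartiles) and 67.3% in that of miR-342-5p (61.4 and 73.3). At least 60% GC was found around 56 of 99 miR-342-3p summits (56.6%) and 145 of 185 miR-342-5p summits (78.4%), a difference of 21.8 percentage points (CI 10.4–33.0, two-sided Fisher's exact test, p = 0.000195, adjusted p = 0.000519). With a limit of 50% the difference was 8.67 percentage points and did not pass. The annotated 5′UTR windows lay between the lists, with 63.9% of them at 60% or above and a median of 65.3%. The GC content of the whole 5′UTR had medians of 63.2% and 68.2%. Windows with and without a site had alike medians, 60.9% and 61.9% for miR-342-3p and 67.3% in both cases for miR-342-5p. The same order was present at other locations, with medians of 51.5% and 59.4% in coding exons and 46.5% and 57.4% in 3′UTRs.

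**Figure D5:**
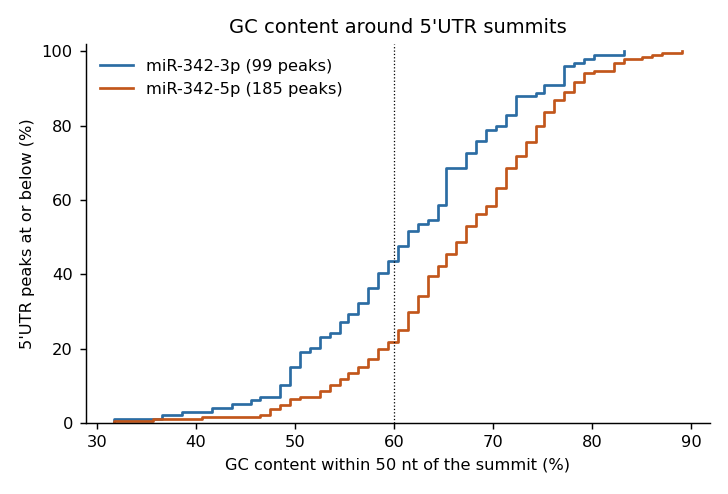
Cumulative share of 5′UTR peaks in percent against the GC content within 50 nt of the summit in percent, for 99 miR-342-3p and 185 miR-342-5p peaks. The dotted line marks 60%, which 56.6% and 78.4% of the summits reached or passed. The miR-342-5p curve lies to the right of the miR-342-3p curve over most of the range.

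Scores in 5′UTRs differed from those in 3′UTRs for miR-342-3p only at a score limit of 50. A score above 50 was found for 16 of 99 miR-342-3p 5′UTR peaks (16.2%) and 27.3% of its 3′UTR peaks, a difference of -11.1 percentage points (CI -17.6 to -2.29, two-sided Fisher's exact test, p = 0.0171, adjusted p = 0.0365), and with limits of 20 or 100 it did not pass. For miR-342-5p the shares were 16.8% (31 of 185) and 16.0% (difference 0.743, CI -4.6–7.2, same exact test, adjusted p = 0.881). Between the lists, the share of 5′UTR peaks above 50 differed by 0.595 percentage points (CI -9.11–9.09, exact test, p = 1.0).

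A 5′UTR peak of both strands was present in 4 genes. This is 4.35% of the 92 miR-342-3p genes and 2.67% of the 150 miR-342-5p genes, compared with 0.779% (miR-342-5p) and 0.478% (miR-342-3p) of all 19258 named protein-coding genes with a 5′UTR, whether transcribed in these cells or not. Both lists share the control libraries, and no test was made. No 5′UTR peaks overlapped between the lists. The share of overlapping peaks over all peaks is not given here, so this cannot be read as particular to 5′UTR peaks. In DUSP6, the miR-342-3p peak (score 10) lay 362 nt from the start codon and had no match, while the miR-342-5p peak (score 106) lay 90 nt away over a 7mer-m8. In MSN, the miR-342-3p peak (108) lay 9 nt and the miR-342-5p peak (26) 132 nt from the start codon, both without a match. In the myosin gene MYO10, the scores were 14 and 11 at 167 and 332 nt, with a 7mer-m8 of miR-342-5p under the latter. In TRIB3, a pseudokinase of the stress response, they were 18 and 21 at 347 and 31 nt, without a match. At any location, 33 of the 92 (35.9%) and 51 of the 150 genes (34.0%) had a peak of the other list, compared with 11.1% and 11.4% of all genes.

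No coding exon or 3′UTR peak of the same list was present in 49 of 92 miR-342-3p genes (53.3%, CI 43.1–63.1%) and 66 of 150 miR-342-5p genes with a 5′UTR peak (CI 36.3–52.0%). A coding exon peak was also present in 32 and 74 genes, and a 3′UTR peak in 12 and 25. Over all genes, 1349 had a coding exon peak of miR-342-3p and 1691 of miR-342-5p, and 918 and 580 a 3′UTR peak. The same shares over all genes with a peak are not given here, and no comparison was tested. More than 1 5′UTR peak was present in 5 miR-342-3p genes and 19 miR-342-5p genes. The genes with the most were chosen after their values were seen. In the miR-342-3p list these were TOP2B, with scores of 77, 14 and 7, and RUNX1, a transcription factor, with scores of 57, 35 and 6 at 982 to 1213 nt from the start codon. In the miR-342-5p list LRFN3 had 8 peaks along its 5′UTR of 1198 nt, with scores from 8 to 44 and a 7mer or 8mer under 3 of them. DLGAP4 and TGFB1, which encodes the cytokine TGF-β1, had 4 each. The TGFB1 scores were 36, 28, 9 and 5, with a 6mer under the first and a 7mer-m8 under the next.

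Gene groups were counted by lists that had been drawn up with earlier results of these data known, no test was made, and the names given are those of all members with a 5′UTR peak. Over all 19258 named protein-coding genes with a 5′UTR, 92 (0.478%) had a miR-342-3p and 150 (0.779%) a miR-342-5p 5′UTR peak, and 11.4% and 11.1% had a peak at some location. Of 86 ribosomal protein genes, 12 had a miR-342-3p and 19 a miR-342-5p peak at some location, and 0 and 1 in the 5′UTR (RPL27A, score 27). Translation factors (69 genes), genes of the ZNF series (509) and the ubiquitin pathway (122) had 0 5′UTR peaks in both lists, which can be read only against the shares under 1% over all genes. At some location, a miR-342-3p peak was present in 20.3%, 6.29% and 21.3% of them and a miR-342-5p peak in 26.1%, 5.5% and 25.4%. Of 50 splicing factor and hnRNP genes, U2AF2 had a miR-342-5p 5′UTR peak (score 13), and RBMX was not on that list. Of 101 chromatin regulators, BRD2 (17) and KMT2C (14) had a miR-342-3p and SETD5 (11) a miR-342-5p 5′UTR peak.

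Of 371 solute carriers, 2 had a miR-342-3p 5′UTR peak (0.539%) and 7 a miR-342-5p one (1.89%). The 2 were SLC38A1 (32) and the zinc transporter SLC39A3 (12). The 7 were SLC1A5, SLC38A2, the zinc transporter SLC30A7 (40), the glucose transporter SLC2A3 (29), SLC41A1 (20), SLC17A9 (20) and SLC22A18 (11), of which the last 3 and SLC30A7 had a 7mer or 8mer. Of 42 genes of the E2F pathway and DNA replication, LMNB1 and RRM1 had a miR-342-3p 5′UTR peak, and RB1, the retinoblastoma protein that restrains E2F, had a miR-342-5p one (score 8, without a match). At some location, 23 (54.8%) and 13 (31.0%) of the 42 had a peak. Of 27 actin, adhesion and invasion genes, ITGA3 (23) and MSN had a miR-342-3p and MSN a miR-342-5p 5′UTR peak. Of 27 growth factor and immediate early genes, DUSP6 had both and EGR1, an immediate early transcription factor, had miR-342-5p peaks (19 and 12). Of 26 genes of RNA silencing and decay, TNRC6B had a miR-342-3p and PABPC1, the poly(A)-binding protein, a miR-342-5p 5′UTR peak (6). At some location, 70.4% of the actin, adhesion and invasion genes had a miR-342-3p peak and 81.5% a miR-342-5p peak. For growth factor and immediate early genes these shares were 40.7% and 51.9%, and for RNA silencing and decay 30.8% and 34.6%. Chromatin regulators had 28.7% and 31.7%, splicing factors and hnRNPs 26.0% and 28.0%, and solute carriers 7.82% and 8.09%. These lists are short, and a single gene moves such a share by several percentage points.

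Some peaks cannot be placed on 1 gene with certainty. The 61 nt around the summit had a near-copy elsewhere in the genome, with at least 95% identity over at least 55 nt, for 3 miR-342-3p peaks (KIAA0319 with 171, VEZF1 and PTP4A2 with 1 each) and 9 miR-342-5p peaks. Among the latter were NPM1 (3 copies), PDIA3 (1), MSN (1), YBX1 (2) and both peaks of PRELID1, a mitochondrial lipid transfer protein (2 and 4 copies, scores 11 and 10). RBMXL1, an intronless relative of RBMX, had its own peak in the miR-342-5p list (score 14, with a 6mer), and reads from these genes may have been shared. Neither of their peaks met the limits for a near-copy. The search used unspliced genomic sequence, so copies of spliced RNA can be missed, and the 101 nt window of RBMX passed the end of its exon. The midpoint lay in the 5′UTR of more than 1 gene for 3 and 2 peaks. Genes named in these sentences other than NPM1, MSN and PRELID1 were chosen after their values were seen.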

How the data were processed

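The authors made 9 Ago-HITS-CLIP libraries from 231HM cells, 3 for each mimic. Per the labels' processing notes and the paper, reads were trimmed with cutadapt 1.13, mapped to hg19 with TopHat2 2.0.13, collapsed with UMI-tools, filtered with Samtools and called with MACS2 2.1.1.20160309 for each mimic over the control. The version of UMI-tools is not given in the sources used here. The authors deposited 2 lists of peaks with a score of at least 5 and the position of the summit. Each strand was called on its own from merged replicates, so a list is 1 value per peak over 3 libraries, the depth of each library is unknown, and no test over libraries could be made. How the score was scaled is not given in the sources used here.

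Starts were read as 0-based and are printed 1-based. Peaks were placed by midpoint and strand on GENCODE release 44 (basic transcripts) mapped to GRCh37. Distances were measured in 1 transcript per peak, the canonical one where it held the midpoint, which was so for 86 miR-342-3p and 167 miR-342-5p peaks. Peaks on the mitochondrial chromosome (47, all miR-342-5p) were not placed. Sequences were read with pysam 0.24.0, and near-copies were searched with blastn 2.17.0. Sites and pairing were searched in the genomic window, which passed the end of the exon for 36 and 55 peaks. Shares were compared by two-sided Fisher's exact tests, strands by exact McNemar tests (scipy 1.17.1), with Wilson and Newcombe 95% intervals and Benjamini-Hochberg adjustment over 16 tests at a threshold of 0.05 (statsmodels 0.14.6, numpy 2.4.6, Python 3.11.15). Figures were drawn with matplotlib 3.10.9. Peaks of a gene are not independent, which these tests do not take into account. The placement, the search for sites and runs and the tests were tested on simulated data.

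Genes were named by a rule: the 12 highest scores per list, every 8mer, genes in both lists, genes the paper names for this experiment (LMNB1, ECT2 and PRELID1), and the 3 peaks per list nearest to a start codon, with ties. Other names are marked, and some genes that the rule names are not reported here. The members, the gene lists and the tests were chosen with earlier results of these data known. Alternatives changed the minimum score, the placement, the transcripts, the window, the kinds of site, the distance, GC and score limits, and the closing section gives their effect.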

Additional observations from a re-analysis of the deposited data

How the results depend on the processing

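No paired analysis was possible because each list merges its 3 replicates, and for the same reason no replicate could be left out. Of the 16 tests, 8 passed an adjusted p of 0.05. The comparisons of sites with the opposite strand, and of the sites of a mimic between its own and the other list, kept their direction under every alternative tried, and those of miR-342-5p also kept their call. The cause of the changes below was not tested. Differences are in percentage points. With scores above 50 (16 and 31 peaks), several calls were lost, namely miR-342-3p sites against the opposite strand (31.2), against the other list (28.0) and against coding exons (10.9), miR-342-5p sites against coding exons (6.01) and GC content (33.9), and 0 genes were shared. The miR-342-5p difference from coding exons was also lost with 1 peak per gene (0.911), canonical transcripts (7.2), 8mers alone (3.28) and 6mers added (6.57), and the GC difference with a limit of 50% (8.67). The miR-342-3p score difference from 3′UTRs was lost with limits of 20 (-8.67) and 100 (-5.98).

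Differences that came to pass 0.05 were location with 1 peak per gene (1.82), by the summit (0.911) and with canonical transcripts (0.904), sites against 3′UTRs for miR-342-5p with 1 peak per gene (-15.0), canonical transcripts (-9.57) and 6mers added (-11.8), and for miR-342-3p by the summit (10.9), with all transcripts (10.3) and with the whole peak outside coding exons and 3′UTRs (15.8). The difference in sites between the lists with 6mers (16.9) and that in the first 100 nt by the summit (-17.1) and the nearest transcript (-14.3) also passed.

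Differences that had not passed changed sign as follows. The miR-342-5p score difference from 3′UTRs was -0.54 with 1 peak per gene, -0.147 with all transcripts, -4.16 with whole peaks outside, -1.4 with a limit of 20 and -0.00847 with 100. The score difference between lists was -3.34 with whole peaks outside, -11.4 with a limit of 20 and -0.584 with 100. The difference between the lists in the share with a site of their own mimic was -1.46 with whole peaks outside and -2.93 with 8mers alone, and the start codon -0.413 with whole peaks outside and -1.65 with a limit of 50 nt. The number of 5′UTR peaks overlapping between the lists was 0, without a share over all peaks to set it against.

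For the sites with a peak over them, alternatives were chosen after seeing the data. The miR-342-5p difference from coding exons did not pass with scores of at least 10 (-12.1) or with 8mers alone (-37.6), and that from 3′UTRs was -10.5 with 8mers alone. In genes with a peak of either list, which include genes chosen by the same peaks, the differences from 3′UTRs passed for miR-342-3p (7.69) and miR-342-5p (12.1), and the miR-342-3p difference from coding exons was -0.56.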

Other observations

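Not every seed site in a 5′UTR had a peak. In transcripts of genes with a peak of the other mimic, a set chosen without the peaks that were counted, 72 miR-342-3p and 101 miR-342-5p sites of 7 or 8 nt lay in 5′UTRs. This count was made after the lists had been seen. A miR-342-3p peak covered 13 of the 72 sites (18.1%, CI 10.9–28.5%), compared with 15.4% of 625 sites in coding sequence (a difference of 2.70 percentage points, Fisher's exact test, two-sided, adjusted p = 0.607 over 4 tests) and 11.7% of 783 in 3′UTRs (6.31, exact test, adjusted p = 0.176). A miR-342-5p peak covered 23 of the 101 sites (22.8%, CI 15.7–31.9%). This was less than the 36.6% of 1004 sites in coding sequence (-13.8 percentage points, CI -21.5 to -4.24, exact test, adjusted p = 0.0244) and within counting error of the 15.9% of 786 sites in 3′UTRs (6.87, exact test, adjusted p = 0.176). The lists hold no RNA levels, so whether a site without a peak lay in an expressed transcript form is not known.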
